A study of Mus musculus with 6 samples.

Results

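The 10 genes described here encode proteins that move or bind zinc and manganese: the exporters and vesicle loaders Slc30a1, Slc30a2, Slc30a5 and Slc30a10, the importers Slc39a4, Slc39a5, Slc39a8 and Slc39a14, and the metallothioneins Mt1 and Mt2. They were taken as a functional group of absorptive tissue. Their chromatin was read in ATAC-seq peak lists, in which a transposase cuts DNA where it is open and a peak marks a stretch with more cut fragments than the background. A peak belonged to a gene when its summit, the base of highest signal, lay in the gene body or within 10 kb of it. After the lists were merged, 36 of 71286 consensus peaks met that rule.

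The lists came from intestinal crypts, the pits of the epithelium that hold stem, Paneth and progenitor cells. Samples of crypts from wild-type (WT) and Arid3a conditional knockout (cKO) mice, 3 of each, were compared to ask how the loss of ARID3A, a transcription factor that binds A+T-rich DNA, changes accessible chromatin. The cKO mice carried VillinCre-ERT2+/- and Arid3a fl/fl, so that deletion was directed to Villin+ epithelium and spared stromal cells. All animals had tamoxifen on 3 consecutive days and were culled 1 month after the first dose. The animals' ages and whether the WT mice carried the Cre are not given in the sources used here. No counts of reads per peak entered the comparisons.

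Zinc enters the cytosol through the Slc39 (ZIP) family and leaves it, to the outside or into vesicles, through the Slc30 (ZnT) family. Excess zinc is bound by metallothioneins, whose genes are switched on by the zinc sensor MTF1 at metal response elements. Manganese shares part of this machinery: Slc39a8 and Slc39a14 carry it into cells, and Slc30a10 exports it. Slc30a10 is named in the study as a target of HNF4, a factor of enterocyte maturation, and is therefore set against the other genes. The study reports its promoter regions as more accessible in cKO than in WT, shown as genome browser tracks. Such tracks are a measure unlike the ranks within peak lists used here.

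The lists held 40492 to 58297 peaks, fewest in WT 1, and the background fragments per base inferred from them ran from 1.75 in cKO 2 to 2.29 in cKO 1. Each peak is given by its percentile, its rank by fold enrichment within its own list from 0 (weakest) to 100 (strongest). Percentiles still move with list length, since a longer list holds more weak peaks: the median of the same 20594 distal peaks called in 6 lists ran from 48.7 in WT 1, the shortest list, to 63.0 in cKO 1, the longest. For the separations at Slc39a4 and Slc30a10, the percentile among the peaks called in 6 lists, which does not change with the number of weak peaks in a list, is given as well where a peak has one. Promoter peaks of 5 of 5 epithelial markers (Epcam, Cdh1, Vil1, Krt8, Cdx2) were called in every list, and none of 5 leukocyte markers had one in any list. The promoters of the mesenchymal markers Col1a1 and Pdgfra had peaks in all 6 lists, while those of Pecam1, Cdh5 and Acta2 had none. Of the crypt and enterocyte markers, Olfm4, Ascl2, Alpi and Fabp1 had promoter peaks in 6 lists, Lyz1 and Sis in 5, and Lgr5, Defa24 and Apoa1 in none. The summed percentile of the 5 epithelial promoters lay between 301 and 314 in the WT lists and was 253, 298 and 226 in cKO 1, 2 and 3, lower in each. The Arid3a promoter peak was present in all 6 lists, at percentiles 64.7, 61.1 and 54.4 in WT and 46.5, 56.7 and 43.7 in cKO, and an open promoter does not check a deletion further inside the gene.

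Sequences of GRCm38.p6 are given first for the metallothionein locus, because its accessible sites carried the densest metal response cores among the 36 peaks. The core was searched as TGCACNC or TGCGCNC on both strands, counting overlapping matches separately, and is in capitals. The 250 bases before the RefSeq or GENCODE start of Mt1 (chr8:94178832-94179081, plus strand) and Mt2 (chr8:94172368-94172617, plus strand), followed by the 201 bases around the summits 4.2 kb (chr8:94183212-94183412) and 7.7 kb (chr8:94186658-94186858) downstream of the Mt1 start, read 5′ to 3′:
Mt1 upstream: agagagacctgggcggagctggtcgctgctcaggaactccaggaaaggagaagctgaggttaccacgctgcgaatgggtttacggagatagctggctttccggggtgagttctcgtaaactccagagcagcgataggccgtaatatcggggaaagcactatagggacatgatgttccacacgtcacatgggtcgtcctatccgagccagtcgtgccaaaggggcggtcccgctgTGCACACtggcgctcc
Mt2 upstream: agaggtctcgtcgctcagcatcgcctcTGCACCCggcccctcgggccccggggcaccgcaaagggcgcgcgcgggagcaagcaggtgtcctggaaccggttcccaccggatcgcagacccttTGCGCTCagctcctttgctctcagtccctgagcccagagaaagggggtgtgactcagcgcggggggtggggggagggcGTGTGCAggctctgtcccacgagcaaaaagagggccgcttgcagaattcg
Mt1 4.2 kb downstream: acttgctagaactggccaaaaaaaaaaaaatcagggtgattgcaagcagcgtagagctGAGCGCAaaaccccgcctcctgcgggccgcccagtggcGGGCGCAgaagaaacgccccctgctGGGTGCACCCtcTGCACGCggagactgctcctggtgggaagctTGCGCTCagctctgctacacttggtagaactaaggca
Mt1 7.7 kb downstream: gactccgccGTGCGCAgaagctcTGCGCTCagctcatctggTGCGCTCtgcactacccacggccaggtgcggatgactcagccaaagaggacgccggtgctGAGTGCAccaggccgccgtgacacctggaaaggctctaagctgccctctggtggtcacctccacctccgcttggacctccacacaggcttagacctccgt

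Further cores near the outermost GENCODE start of each gene lay partly after it, and are shown as 23-base sites with the core in capitals. GENCODE lists 3 starts for Mt1 and 2 for Mt2, so a core after the outermost start may still lie before another start. In Mt1 they began 9, 27 and 91 bases after the start. In Mt2 they began 42 bases before it and 12, 31 and 65 bases after it. In the same order they read:
Mt1 site 1: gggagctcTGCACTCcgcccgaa
Mt1 site 2: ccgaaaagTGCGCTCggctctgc
Mt1 site 3: cgcctgctGGGTGCAaacccttt
Mt2 site 1: ttcgggtcGTGCGCAggcccagg
Mt2 site 2: aaaagggcGTGTGCAggcggcgg
Mt2 site 3: gcgggggcGCGTGCAtggtgcct
Mt2 site 4: ggagctttTGCGCTCgacccaat

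For Slc30a10 the 250 bases before the start (chr1:185454598-185454847, plus strand) are shown with metal response cores in capitals, and the 201 bases around the distal summits 5.8 kb upstream (chr1:185448923-185449123) and 14.7 kb downstream (chr1:185469482-185469682) with the 11 bases on the summit in capitals. The HNF4 consensus, searched only as the exact letters CAAAGTCCA or CAAAGTTCA on both strands, was in none of these Slc30a10 windows. Variants of these letters were not searched, so other HNF4 sites may be present in them.
Slc30a10 upstream: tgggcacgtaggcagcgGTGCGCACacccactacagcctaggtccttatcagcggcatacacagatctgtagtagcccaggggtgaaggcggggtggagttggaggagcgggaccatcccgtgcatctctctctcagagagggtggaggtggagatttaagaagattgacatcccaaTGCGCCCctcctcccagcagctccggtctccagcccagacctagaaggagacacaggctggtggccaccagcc
Slc30a10 5.8 kb upstream: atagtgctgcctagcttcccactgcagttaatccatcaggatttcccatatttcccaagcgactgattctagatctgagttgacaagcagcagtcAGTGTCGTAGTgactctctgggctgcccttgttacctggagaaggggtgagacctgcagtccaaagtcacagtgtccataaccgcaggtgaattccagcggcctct
Slc30a10 14.7 kb downstream: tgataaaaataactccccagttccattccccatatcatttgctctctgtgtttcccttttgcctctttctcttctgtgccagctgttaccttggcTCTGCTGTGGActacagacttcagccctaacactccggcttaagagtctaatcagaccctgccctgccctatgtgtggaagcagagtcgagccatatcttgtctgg

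The HNF4 consensus did occur in 2 of the 36 windows, both upstream of Slc39a14, and it is in capitals in these 201-base windows on the gene's minus strand at 2.2 kb (chr14:70353505-70353705) and 7.2 kb (chr14:70358541-70358741) before the start.
Slc39a14 2.2 kb upstream: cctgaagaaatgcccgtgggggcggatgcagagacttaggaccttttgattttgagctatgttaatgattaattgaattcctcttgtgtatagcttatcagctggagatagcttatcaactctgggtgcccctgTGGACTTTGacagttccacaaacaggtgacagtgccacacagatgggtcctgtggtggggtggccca
Slc39a14 7.2 kb upstream: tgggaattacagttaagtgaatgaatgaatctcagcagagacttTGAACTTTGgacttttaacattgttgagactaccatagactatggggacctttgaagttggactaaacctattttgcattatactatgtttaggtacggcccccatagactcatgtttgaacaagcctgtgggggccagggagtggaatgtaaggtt

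All of these genes but Slc30a1 had accessible promoters in every sample, and no peak of theirs passed the test between genotypes. Of the 36 consensus peaks, 10 lay at a promoter of a member (1000 bases before to 100 after an annotated start), 5 at the promoter of a neighbouring gene and 21 were distal. Peaks were called in all 6 lists for 24 of them, in 5 lists for 2, in 4 for 1, in 2 for 5 and in 1 for 4. The 10 windows held 28, 30 and 29 peaks in the WT lists against 30, 28 and 28 in the cKO lists, or 29.0 ± 1.0 against 28.7 ± 1.15 (SD, n = 3 each), so the number of accessible sites around these genes differed by less than the spread. The rule's limit of 10 kb fell between a Nabp2 promoter peak 8762 bp from Slc39a5 (mean percentile 53.3) and a distal peak 10109 bp from Slc30a5 (94.7), each in 6 lists. A Gm39228 promoter peak 9744 bp from Mt2 (29.8) was also in the window of Mt1, well inside the limit.

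Between genotypes, limma on log2 fold across all 32748 consensus peaks called in 6 lists gave 0 member peaks higher (0.0% of all peaks) and 0 lower (0.0%) in cKO at an adjusted p under 0.05. At an unadjusted p under 0.05, 1 of the 24 member peaks was lower, the Slc39a14 promoter, and 0 were higher, against 2.5% of all peaks lower and 4.86% higher, and 3.58% of promoter peaks lower. The percentiles of the genotypes did not overlap at 1 of 14 promoter peaks, neighbours included, which was Slc39a4 and lower in cKO (9.06% of all promoter peaks). At 0 of 14 they were higher without overlap (3.3%). Among 10 distal peaks 0 were higher (5.46%) and 0 lower (5.84%). No member site was called in 3 cKO and 0 WT lists (0.464% of all consensus peaks) or the reverse (0.111%). In each of these counts the members lay near the background.

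The 10 member promoter peaks had a median difference (cKO minus WT) of -2.48 percentile points with 8 lower and 2 higher, against a median of -1.27 and 38.7% higher for all 12154 promoter peaks. The 10 distal peaks had a median of 2.22 with 6 higher and 4 lower, against 1.17 and 55.6% higher for all 20594 distal peaks. Neither sign was stable: the distal median was -2.86 without WT 1 and -2.72 without cKO 2, and the promoter median was 0.33 by −log10 q. In bulk crypts, fewer cells with an open site and less opening per cell cannot be told apart.

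**Figure D1:**
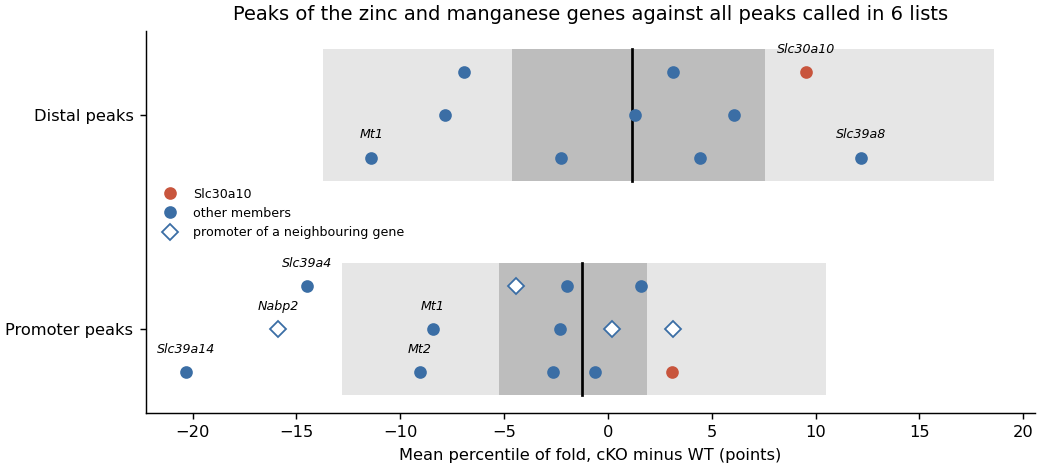
Difference in mean percentile of fold enrichment, cKO minus WT in points, for member peaks called in 6 lists (red: Slc30a10; blue: the others; open diamonds: promoters of neighbouring genes). Dark bars hold the middle 50% of all promoter or distal peaks, light bars the middle 90%, and black lines the medians of -1.27 and 1.17; Slc39a14, Nabp2 and Slc39a4 lie left of the light promoter bar.

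Of the 4 importer genes, Slc39a14 and Slc39a4 had the promoter differences largest in size among the members on the log2 scale, and Slc39a5 and Slc39a8 were among the smaller ones. Slc39a4 (chr15:76612383-76617384, minus strand) encodes the apical transporter that takes up dietary zinc. Its promoter peak, with the median summit in an annotated UTR of the gene, stood at percentiles 62.3, 59.0 and 57.7 in WT and 44.0, 57.5 and 34.1 in cKO. All 3 cKO values were below all WT values, but cKO 2 missed the lowest WT value by only 0.2 points. Among the peaks called in 6 lists the genotypes overlapped, at 53.7, 38.7 and 33.6 in WT and 21.4, 41.1 and 17.3 in cKO, and they overlapped by −log10 q. The means were 59.7 ± 2.37 and 45.2 ± 11.7 (SD, n = 3 each), p = 0.1 in an exact two-sided permutation test, the smallest that 3 against 3 samples allow. On the log2 fold scale the difference was -0.29 ± 0.19 (SE, adjusted p = 0.709, limma).

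A second, weaker site of Slc39a4 lay 6.9 kb downstream of the start, past the gene end. It was called at percentiles 21.3, 24.2 and 6.09 in WT and only in cKO 3, at 4.02. With a missing peak set at percentile 0, a treatment chosen after the values were seen, it was lower in cKO without overlap. So were 5.22% of all peaks called in at least 3 lists. The summit pileup of this site was 25, 32 and 31 fragments in WT, against 37 in cKO 3. The promoter peaks of the neighbours Cpsf1 and Vps28, both within the window, had means of 86.1 ± 7.83 and 85.0 ± 1.86 in WT against 86.3 ± 2.59 and 88.1 ± 3.82 in cKO (SD, n = 3 each), and their genotypes overlapped.

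Slc39a14 (chr14:70303469-70351425, minus strand) imports zinc, manganese and iron. Its first promoter, 15 bases before the outermost start, stood at 54.5, 75.7 and 73.6 in WT and at 37.7, 68.2 and 37.1 in cKO. WT 1 and cKO 2 crossed the gap between the other samples, so the genotypes overlapped. The log2 fold difference of -0.45 ± 0.20 (SE) was the largest among member promoters, with an unadjusted p = 0.0323 and an adjusted p = 0.67 (limma). Leaving out cKO 2 made it -0.68 (adjusted p = 0.135) and leaving out cKO 1 made it -0.31 (adjusted p = 0.999). The same cKO 1 and cKO 3 lists had the lowest summed percentiles of the epithelial markers, and the part of that shift in the Slc39a4 and Slc39a14 values was not tested.

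The other Slc39a14 sites called in 6 lists differed less. A second promoter peak 3.0 kb into the gene was among the weakest peaks of each list, at 1.92, 6.2 and 2.66 in WT and 1.93, 1.44 and 0.439 in cKO. An intronic peak 10.1 kb into the gene stood at 60.3, 83.7 and 80.9 in WT and 65.6, 76.6 and 75.9 in cKO, and one at 17.8 kb at 20.4, 56.8 and 62.8 against 58.4, 51.2 and 40.0. At 10.1 kb the genotypes overlapped through WT 1 alone, and at 17.8 kb they were interleaved. The site 2.2 kb upstream with the HNF4 consensus stood at 11.2, 23.3 and 23.6 in WT and 17.5, 33.5 and 10.9 in cKO (log2 difference 0.08 ± 0.17 SE, adjusted p = 0.899, limma). The second site with that consensus, 7.2 kb upstream, was called only in cKO 1 (7.6, from 23 fragments) and cKO 3 (13.7, from 18 fragments). The consensus was present in 2.51% of all consensus peak windows, and its presence in these letters is not evidence that HNF4 was bound. Sites at 2.9 kb upstream and 6.4 and 41.2 kb downstream were called in 2, 1 and 1 lists.

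Slc39a8 (chr3:135825279-135888572, plus strand) imports zinc and manganese. Its promoter peak stood at 71.5, 66.1 and 66.6 in WT and 69.8, 74.4 and 64.8 in cKO, a log2 difference of 0.01 ± 0.17 (SE, adjusted p = 0.984, limma). The values of the genotypes were interleaved. Of 3 intronic peaks, that at 26.6 kb had the largest positive difference among all member peaks called in 6 lists, with 54.1, 75.1 and 73.4 in WT and 89.3, 68.0 and 82.0 in cKO. The genotypes overlapped through cKO 2, and the log2 difference was 0.29 ± 0.16 (SE, unadjusted p = 0.0887, adjusted p = 0.694, limma). The peak at 20.4 kb stood at 48.1, 62.3 and 56.1 in WT and 43.3, 53.0 and 49.4 in cKO, and a weak one at 16.9 kb was called in 5 lists between 7.42 and 15.4. An upstream site was called in WT 2 alone.

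Slc39a5 (chr10:128395931-128401229, minus strand) encodes a zinc importer of the basolateral membrane. Its promoter was among the strongest of the group, at 74.5, 80.8 and 90.8 in WT and 79.6, 81.7 and 82.9 in cKO, with a log2 difference of -0.07 ± 0.14 (SE, adjusted p = 0.886, limma). Its window held no distal peak, and only the promoter of the neighbour Nabp2 besides. That peak, at 65.7, 60.2 and 57.8 in WT and 33.2, 62.9 and 39.7 in cKO, again had low values in cKO 1 and cKO 3.

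**Figure D2:**
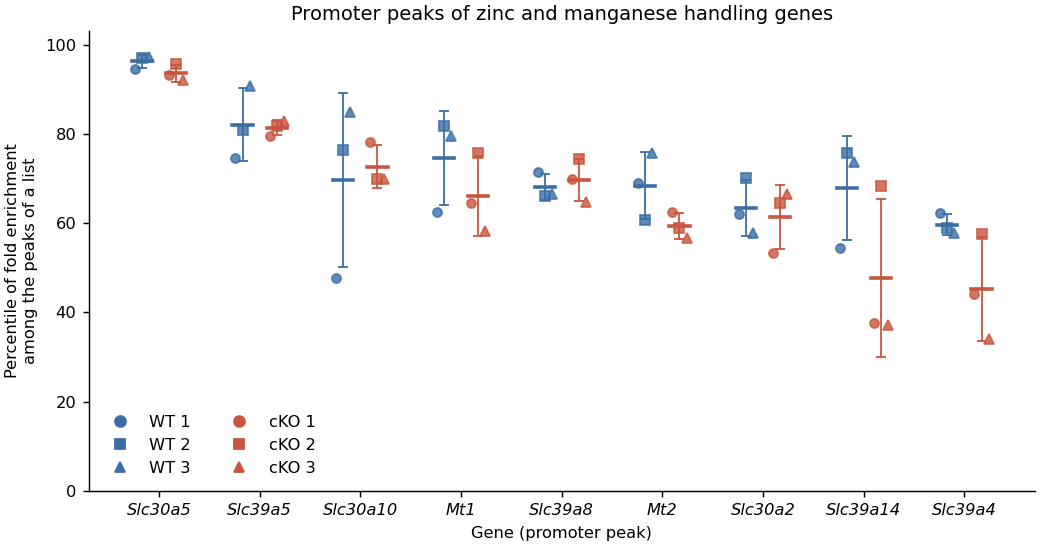
Percentile of fold enrichment within a list for the strongest promoter peak of each gene, ordered by the mean over 6 samples (symbols: single samples; bars: mean ± SD, n = 3). Slc30a5 lies at 92.0 or above in every list, Slc39a4 has the lowest mean, and the spread within a genotype is widest for Slc30a10 in WT and Slc39a14 in cKO.

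Among the exporters, Slc30a10 (chr1:185454848-185468762, plus strand), the manganese exporter of the plasma membrane, had flanking sites with higher percentiles in cKO lists and a promoter at which the genotypes were interleaved. The promoter peak stood at 47.6, 76.3 and 84.8 in WT and 78.2, 69.9 and 69.9 in cKO. In WT 1 it was weaker than in any other list and its summit lay 259 bases after the start, against -13 to -151 bases from it in the others. The means of 69.6 ± 19.5 and 72.7 ± 4.79 (SD, n = 3 each) differed by less than the WT spread (p = 0.9, exact two-sided permutation test), and the log2 difference was -0.01 ± 0.17 (SE, adjusted p = 0.991, limma). Its sign turned with the sample left out: -0.20 without WT 1 and 0.14 without WT 3.

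The distal sites of Slc30a10 had higher values in cKO, with no call by the test. The peak 5.8 kb upstream, in an exon of the long noncoding RNA gene Gm2061, stood at 57.3, 57.8 and 70.2 in WT and 74.8, 65.6 and 73.5 in cKO, overlapping through WT 3 and cKO 2. The log2 difference was 0.19 ± 0.16 (SE, n = 3 each, adjusted p = 0.759, limma). Among the peaks called in 6 lists the genotypes separated, at 47.6, 37.3 and 50.9 against 57.2, 51.7 and 59.6, as did 5.86% of all these peaks in that direction.

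The peak 14.7 kb downstream of the start, just past the gene end and between genes, was not called in WT 1 and stood at 11.4 and 33.6 in WT 2 and 3. In cKO it stood at 70.8, 49.4 and 65.2, so all cKO values were above all WT values. The summit pileup reached 10 fragments in WT 2 and 17 in WT 3, against 32, 19 and 25 among the cKO samples. The lowest cKO pileup came from cKO 2, whose background was the lowest of all 6 lists (1.75 fragments per base). The highest pileup came from cKO 1, whose background was the highest (2.29), followed by cKO 3 (2.18). The pileup of 10 belonged to a background of 1.82 (WT 2), and that of 17 to 2.01 (WT 3). Among the lists with a call, pileup thus rose with background within each genotype. WT 1, where the peak was not called, had a background of 2.11, the highest of the WT lists. The part of background in the difference between genotypes was not tested. Because the peak was missing from a list, it was outside the limma test. With a missing peak set at percentile 0, 6.25% of the 36069 distal peaks called in at least 3 lists were likewise higher in cKO without overlap. An exact two-sided permutation test of 3 against 3 samples gives its smallest value, p = 0.1, for any separation without overlap, so it would add no support. Setting a missing peak at 0 was chosen after the values were seen. With every list shortened to its 40492 strongest peaks by −log10 q, this was the 1 member site called in 3 cKO and 0 WT lists, as were 0.499% of all consensus sites in those shortened lists.

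Further sites were called 8.2 kb into the gene in WT 3 (21) and cKO 1 (28.0), and 21 kb downstream in cKO 1 (11.7) and cKO 3 (45.6). These rested on 13 and 14 and on 13 and 17 fragments. A list held 2, 3 and 4 peaks in the Slc30a10 window in WT and 5, 3 and 4 in cKO. The extra sites in cKO 1 came from the longest list, and the counts overlapped.

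**Figure D3:**
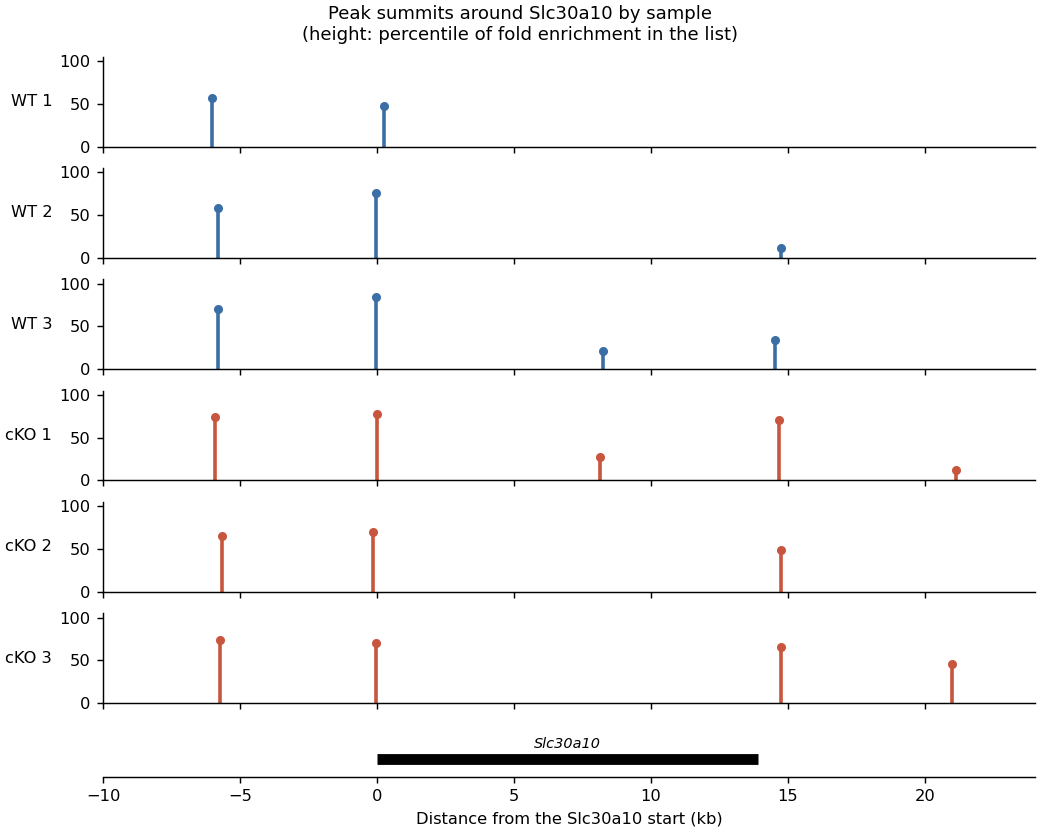
Peak summits around Slc30a10 in each list, by distance from its start in kb and with height giving the percentile of fold enrichment (blue: WT; red: cKO; black bar: gene body). The promoter and the site 5.8 kb upstream are present in 6 lists, and the site 14.7 kb downstream in 5, at 49.4 to 70.8 in cKO and at most 33.6 in WT.

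Set against the other 8 genes with promoter peaks, the Slc30a10 promoter lay within their range in 5 of 6 lists. In WT 1, 2 and 3 it stood at 47.6, 76.3 and 84.8 beside a median of 65.7, 73.0 and 74.6 for the others. In cKO it stood at 78.2, 69.9 and 69.9 beside 63.4, 71.3 and 61.5. Between genotypes its mean was 3.08 points higher in cKO, a sign that rested on WT 1: without it the WT mean was 80.6 and the difference -7.91. Of the 9 other member promoter peaks 8 were lower in cKO, with a median of -2.65. Its 1 distal peak called in 6 lists differed by 9.53 points, against a median of 1.28 over 9 distal peaks of the other members, of which 5 were higher and 4 lower. Slc39a8 at 26.6 kb exceeded it, at 12.2 points.

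Slc30a5 (chr13:100802648-100833427, minus strand) loads zinc into the secretory pathway, where enzymes such as alkaline phosphatase acquire it. It had the strongest promoter of the group, at 94.6, 97.0 and 97.2 in WT and 93.1, 95.7 and 92.0 in cKO, and no other peak in its window. The log2 difference was -0.14 ± 0.10 (SE, adjusted p = 0.718, limma), and the percentiles overlapped.

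Slc30a2 (chr4:134343181-134354484, plus strand) loads zinc into vesicles, among them the granules of Paneth cells. Its promoter peak stood at 62.1, 70.2 and 57.7 in WT and 53.2, 64.4 and 66.6 in cKO, a log2 difference of -0.07 ± 0.18 (SE, adjusted p = 0.921, limma). An intronic peak 5.2 kb into the gene stood at 35.6, 31.2 and 37.5 against 34.8, 55.4 and 32.2, and a peak at 14.3 kb, in the neighbour Extl1, at 59.8, 48.4 and 54.2 against 47.2, 51.4 and 40.2. In each the genotypes overlapped. A site 18.2 kb downstream was called in WT 1 and WT 3 alone, both at or below 3.05, and one at the pseudogene Gm13195 in cKO 1 alone.

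Slc30a1 (chr1:191906767-191913247, plus strand), the zinc exporter of the plasma membrane and a known MTF1 target, had no peak in its window in any list. Its gap was wide: no list had a summit from 114 kb before to 201 kb after its start, and the gap was 345 kb in 5 lists and 314 kb in cKO 3. Sequence sampled every 1000 bases as 101-base tiles had an identical copy on a patch scaffold of GRCm38.p6 in 311 of 314 tiles from 113 kb before to 200 kb after the start. The 3 other protein-coding genes that begin in the gap, Nek2, Rd3 and Traf5, also had no promoter peak.

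Reads that match such a copy equally well have no single place to align if the copy is in the genome used. Each list held 61 to 92 peaks outside the 21 chromosomes, and how many of them lay on patch scaffolds is not given here. Of 273 protein-coding genes whose 301-base start region had an identical patch copy, 266 (97.4%) had no promoter peak in any list, against 41.8% of 21482 genes without a copy. Among the genes with a copy, 7 did have a promoter peak in 6 lists. The absence of peaks at Slc30a1 is not taken here as a measurement of closed chromatin. Its cause was not tested. The 250 bases before its start (chr1:191906517-191906766, plus strand), with the metal response core in capitals, are shown as the stretch these lists do not report on.
Slc30a1 upstream: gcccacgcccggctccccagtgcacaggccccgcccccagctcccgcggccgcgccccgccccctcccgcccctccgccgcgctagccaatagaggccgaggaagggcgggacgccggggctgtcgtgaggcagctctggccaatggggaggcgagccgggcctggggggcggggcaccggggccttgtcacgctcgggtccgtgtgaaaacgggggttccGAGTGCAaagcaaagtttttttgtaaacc

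**Figure D4:**
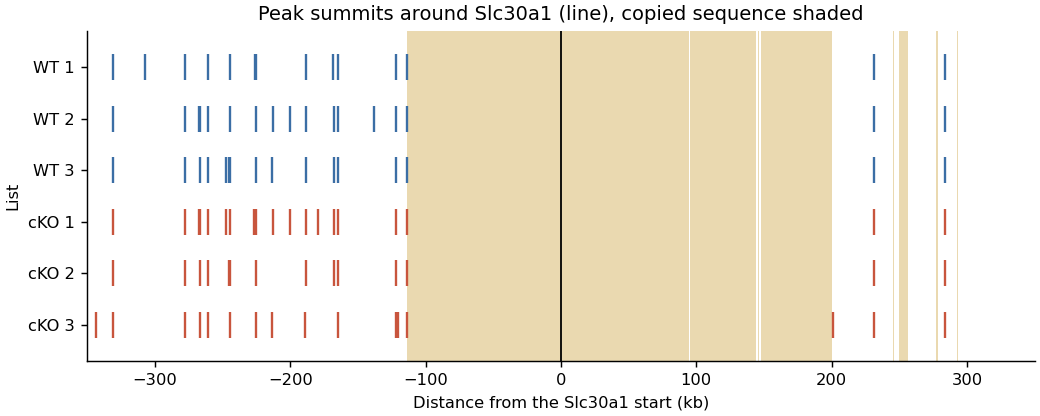
Peak summits in each list by distance in kb from the Slc30a1 start (black line; ticks: summits; blue: WT; red: cKO), with tiles that have an identical copy on a patch scaffold shaded. Summits stop at the left edge of the shaded stretch, 114 kb before the start, and resume 201 kb after it in cKO 3 and further right in the other lists.

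Mt1 (chr8:94179082-94180327, plus strand) and Mt2 (chr8:94172664-94173568, plus strand) encode small cysteine-rich proteins that buffer zinc. The Mt1 promoter peak, 4 bases from the start, stood at 62.5, 81.7 and 79.5 in WT and 64.4, 75.8 and 58.2 in cKO. The Mt2 promoter peak stood at 69.0, 60.6 and 75.6 in WT and 62.5, 58.8 and 56.7 in cKO. Both means were lower in cKO and both overlapped. The log2 differences were -0.25 ± 0.17 (SE, adjusted p = 0.713, limma) for Mt1 and -0.23 ± 0.17 (adjusted p = 0.729) for Mt2. In cKO 3 the summit of the Mt2 peak lay 572 bases after the start, against 10 bases before to 80 after it in the others.

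The sites around the pair were called in all 6 lists too. The peak 7.7 kb downstream of the Mt1 start stood at 45.2, 58.3 and 47.6 in WT and 41.6, 45.7 and 29.4 in cKO, overlapping only through cKO 2 and WT 1. That at 4.2 kb, at the start of the long noncoding RNA gene Gm39228, stood at 48.1, 29.6 and 18.4 against 19.8, 46.9 and 16.0. Its summit took one of 2 positions: 4184 or 4185 bases from the Mt1 start in WT 1, WT 2 and cKO 2, and 4275 in WT 3, cKO 1 and cKO 3. The samples with the nearer summit had the higher percentiles, in both genotypes. They also had the shortest lists, of 40492, 50704 and 46415 peaks, against 51464 to 58297 in the others. The part of list length in this pattern was not tested. A distal peak 5.2 kb upstream of Mt2 stood at 34.3, 53.5 and 58.7 against 63.0, 36.6 and 60.2.

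The locus was dense in metal response cores. The 201-base summit windows held 4 cores at the Mt1 promoter, 4 at the Mt2 promoter, 6 at the Gm39228 start, 4 at 7.7 kb and 2 at the site upstream of Mt2. At the Gm39228 start a pair of these cores shared letters on opposite strands. Windows with at least 4 cores, a number chosen after these counts were seen, made up 0.333% of all promoter peaks and 0.113% of distal ones, and no member peak outside this locus had that many. At least 1 core was found in 6 of the 15 windows at promoters (40.0%), against 28.6% of all promoter peaks, and in 6 of the 21 distal windows (28.6%), against 14.2% of all distal peaks. Outside the metallothionein locus these were 3 of 12 and 4 of 19. Of all 32851 RefSeq promoters 25.7% held one and 0.517% held at least 4. RefSeq promoter sequences matched 8 of the 10 genes.

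**Figure D5:**
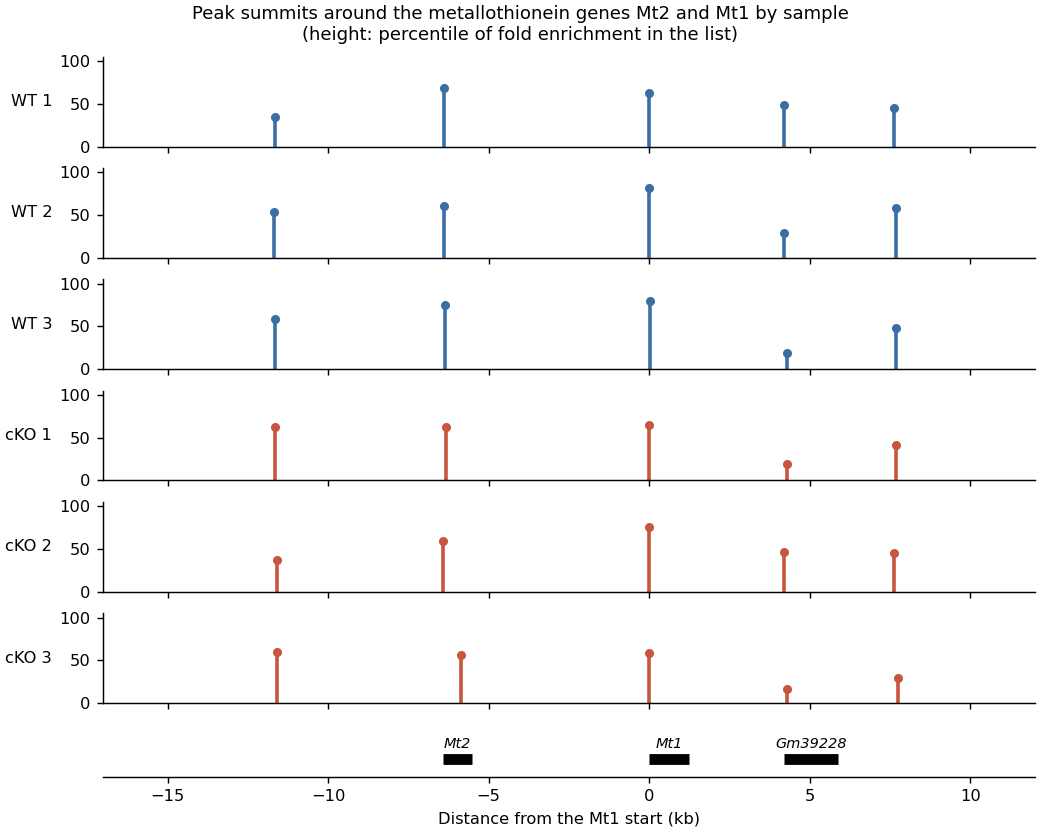
Peak summits around Mt2 and Mt1 in each list, by distance from the Mt1 start in kb and with height giving the percentile of fold enrichment (blue: WT; red: cKO; black bars: gene bodies). The same 5 sites are called in 6 lists, and the Gm39228 site is highest in WT 1 and cKO 2, at 48.1 and 46.9.

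Of the remaining motifs, AP-1 was about as frequent as in all peaks and ARID3 somewhat more frequent. The ARID3 consensus, searched as ATCAAA or ATTAAA on both strands, lay in 8 of 36 member windows (22.2%) against 16.1% of all. The AP-1 consensus (TGACTCA or TGAGTCA) lay in 3 (8.33%) against 8.09%. Both backgrounds differed by class: ARID3 lay in 6.74% of all promoter and 18.7% of all distal peaks, and AP-1 in 3.39% and 9.38%. The member shares are not split by class here. One ARID3 match lay in the Slc39a8 window at 26.6 kb. A match describes the letters in a window and not a bound factor.

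Of 25 other zinc and manganese genes, 18 had a promoter peak in all 6 lists, 3 in 1 or 2 lists and 4 in none, and limma called 0 of the 18 in either direction (lowest adjusted p = 0.629). Of these, 12 were lower and 6 higher in cKO, with a median of -0.856 percentile points, against -1.27 for all promoter peaks. The one with an unadjusted p under 0.05 was Slc39a3, a zinc importer of the plasma membrane, at 76.9, 90.4 and 94.2 in WT and 96.8, 96.3 and 96.2 in cKO, higher without overlap (log2 difference 0.30 ± 0.11 SE, unadjusted p = 0.0138, limma). Slc30a3, which loads zinc into synaptic vesicles, went the other way, at 53.0, 56.4 and 49.5 against 40.2, 41.9 and 39.8. Mtf1, the sensor that acts at metal response elements, stood at 94.4, 93.5 and 96.0 against 93.2, 91.3 and 90.8, and Slc39a13, an importer of the secretory pathway, at 98.6, 98.7 and 97.9 against 96.8, 96.9 and 97.6. These 3 of the 18 were lower without overlap and 1 was higher, against 9.06% and 3.3% of all promoter peaks, with adjusted p of 0.731, 0.738 and 0.747 for the 3 in limma.

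The genes without a promoter peak in any list were Slc30a4, Slc30a8, Slc39a2 and Slc39a12. Slc30a4 shared with Slc30a1 an identical patch copy of its start region, and the other 3 had none. Slc39a10 had a promoter peak in cKO 1 (28.0) and cKO 3 (20.7), Tmem163 in cKO 3 (23.8), and Mt4, a metallothionein of stratified epithelium, in WT 2 (28.1) and WT 3 (28.9). Slc11a2, the apical importer of iron and manganese, stood at 70.4, 77.6 and 70.3 in WT and 56.4, 76.4 and 49.3 in cKO, low in cKO 1 and cKO 3 as were Slc39a4 and Slc39a14.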

How the data were processed

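ATAC-seq peaks were called by the authors per sample with MACS2 in the nf-core ATAC-seq pipeline, after alignment to the Ensembl toplevel GRCm38 sequence and removal of blacklisted regions. Pooled replicates were not used. Each deposited peak carries a fold enrichment (a ratio of summit pileup to local background), −log10 p and −log10 q values, a score (10 times −log10 q) and a summit offset in bases, all computed by the authors. The deposited summit offset is an unscaled position.

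The 61 to 92 peaks per list outside the 21 chromosomes were left out. The others were merged where they overlapped and assigned by the median summit to GENCODE M21 genes, for which the 10 member genes, the other 25 genes and the motifs were chosen with earlier results of these data known. All member promoters are described. Distal peaks are named if they passed the test or did not overlap between genotypes, and otherwise as the strongest of their locus, and further ones were added after their values were seen. Log2 fold was quantile-normalised and tested over all peaks called in 6 lists with limma 3.58.1 (R 4.3.3), adjusted by Benjamini-Hochberg at 0.05, without a block. No pseudocount was needed. The script was tested on simulated data. Pileup and background were inferred from fold and p, for which a whole number was found for 100% of sampled peaks. Read totals were not used here, so depth is known only from this background. The labels do not say that each list came from a separate animal, so p-values measure only the spread between samples, which may be technical. Patch copies were sought as exact matches in GRCm38.p6. Python 3.11.15, pandas 2.3.3, scipy 1.17.1 and matplotlib 3.10.9 were used. Alternatives are listed with their effects in the closing section.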

Additional observations from a re-analysis of the deposited data

How the results depend on the processing

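Member peaks past the limma threshold numbered 0 higher and 0 lower under each alternative run: median centring, −log10 q in place of fold, peaks with −log10 q of at least 5, fixed-width windows around summits, each sample left out and the replicate block. With fixed-width windows only 18 member peaks entered the test, and the Slc30a10 promoter was not among them. Over all peaks, 3 were called higher and 1 lower with the replicate block, 3 higher without WT 3 and 1 higher with median centring. Deviations from the genotype means had correlations of -0.272, -0.00476 and 0.127 between same-numbered samples. Without differently numbered pairs beside them, these values cannot decide whether the numbers pair the samples. The block left the Slc30a10 promoter at -0.01.

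Using −log10 q turned the promoter difference of Slc30a10 to 0.19 and that of Slc30a2 to 0.20 on the log2 scale. With each sample left out, it ranged from -0.20 to 0.14 for Slc30a10, -0.185 to 0.049 for Slc30a2, -0.134 to 0.027 for Slc39a5 and -0.075 to 0.102 for Slc39a8, none past the threshold. The cause was not tested. Peaks higher in cKO without overlap numbered 1 by −log10 q (the Slc39a8 promoter, 6.72% of all peaks), 1 by percentiles among peaks in 6 lists (Slc30a10, 5.8 kb upstream, 5.86%), and 0 to 4 with a sample left out (6.38% to 17.3%). Those lower numbered 0 (2.24%), 0 (6.08%) and 1 to 8 (9.02% to 20.9%), and 0 with fixed-width windows (7.0%). In those windows the promoters of Slc39a4, Slc30a10, Slc39a8 and Mt2 were not one peak called in 6 lists. Peaks called in at least 3 lists with missing values at 0, chosen after seeing the data, gave 1 higher and 2 lower (5.58% and 5.22% of all). Lists of equal length gave 1 site in 3 cKO and 0 WT lists (0.499% of all); leaving a sample out gave 0 to 2, and 0 to 1 for the reverse. With a sample left out, the median difference of promoter peaks ran from -6.14 to -1.76, that of distal peaks from -2.86 to 5.41, and that of peaks per list from -1.0 to 0.167. Depth is known only from the inferred background, and its limit on weak sites was not tested.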
